A study of Mus musculus with 4 samples.

Results

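The transcripts of 38 genes that build, turn over and move the actin cytoskeleton were followed in cells sorted as tumour-infiltrating T cells. The cells came from mice with and without a Cd8-cre transgene, all carrying floxed Smad4. The genes were chosen as a list by name, with earlier results of these data known. All 38 were found among the 14082 genes listed for each library and among the 13358 that were tested. RNA came from cells sorted as ovalbumin-specific CD8 T cells from subcutaneous E.G7 tumours, and it also held abundant transcripts of other cell types, as given below. E.G7 is an ovalbumin-expressing line derived from the EL4 mouse T lymphoma. The group labelled KO carried Cd8-cre and 2 floxed copies of Smad4 (Cd8-cre Smad4-fl/fl), and the group labelled WT carried the floxed copies without Cre (Smad4-fl/fl). Each group had 2 libraries, and every host mouse was 6 to 10 weeks old when tumour cells were injected under the skin of the right flank. All 4 libraries thus share the floxed Smad4 allele and the tumour, and Cre acts where the Cd8 promoter is or has been active. Nothing in the labels states that replicate libraries are different mice, and p-values therefore cover the spread of these samples alone, possibly of technical origin.

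Actin cycles between monomers and filaments, and the pace of that cycle sets how a T cell crawls, spreads on a target and polarises its granules. Thymosins and profilin hold and deliver monomers, the Arp2/3 complex starts branches when WASP or WAVE proteins switch it on, and small GTPases with their exchange factors decide where this happens. Myosins pull on the filaments, and ezrin, moesin, talin and vinculin tie them to the membrane and to integrins.

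Most of the actin genes were slightly lower in the libraries labelled KO, and none was called higher. Of 38 genes, 23 fell, 0 rose and 15 did not pass (edgeR quasi-likelihood test, Benjamini-Hochberg adjusted p under 0.05 over all tested genes), against 11.0% of all tested genes called lower and 10.1% called higher, or 21.2% in either direction. No gene was higher even by an unadjusted p under 0.05 (0 of 38), and DESeq2 and limma-voom also gave 0. The falls were small. Their log2 fold changes (KO over WT) ran from -0.71 to -0.19, so the WT level was 1.14 to 1.64 times the KO level. The median over all 38 genes was -0.22, against -0.0037 over all tested genes. These are abundant transcripts, which are called more often, and among the 3965 tested genes with a mean of at least 50 CPM (read counts divided by the TMM-scaled library size) 18.5% were called lower and 16.3% higher, or 34.9% in either direction. Of the 36 actin genes above that level, 22 fell and 0 rose. That level was chosen after the data were seen. With library totals alone as the scaling, 14 of the 38 genes fell and 0 rose, against 7.58% of all tested genes and 12.0% of those at 50 CPM or more called lower, and the calls over all genes became 2105 higher and 1013 lower, against 1354 and 1472 with TMM.

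**Figure D1:**
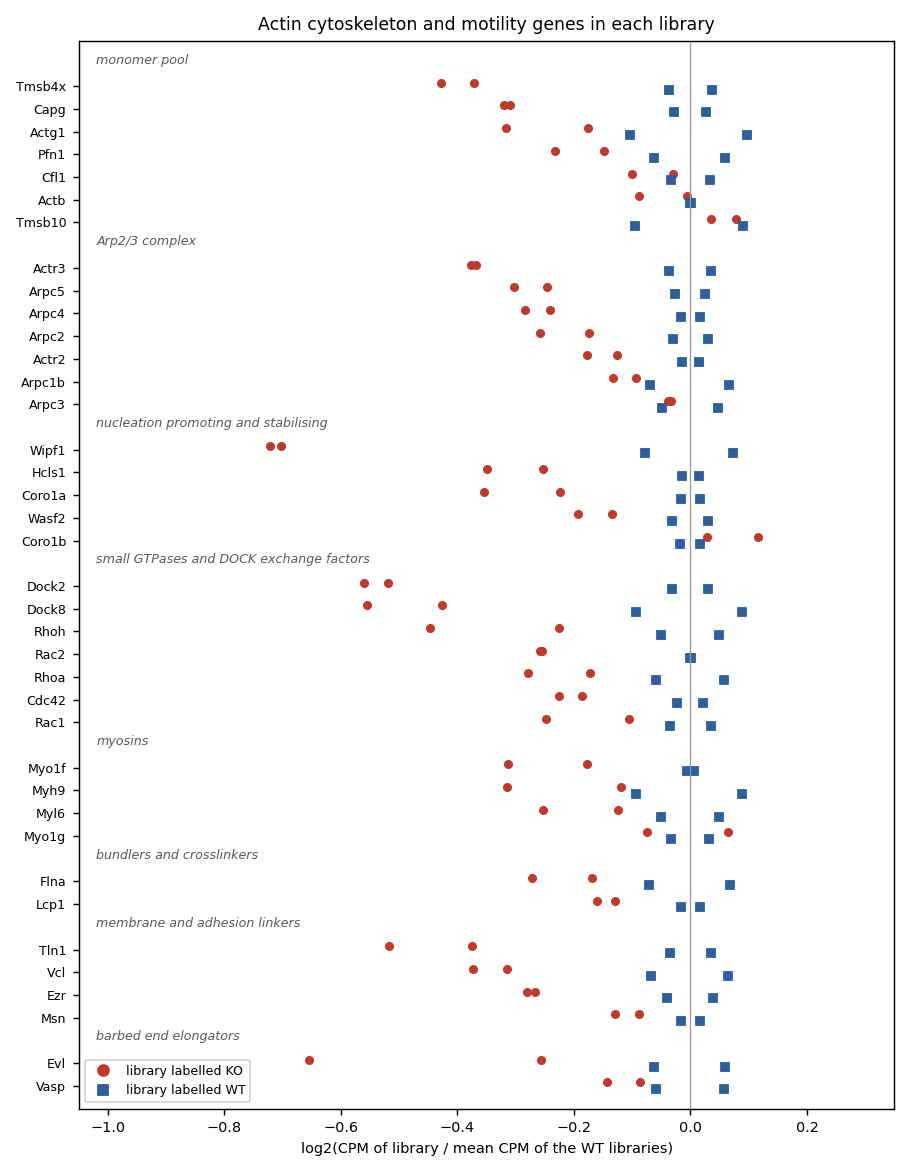
Level of each of the 38 genes in each library, as the log2 ratio of its CPM to the mean CPM of the WT libraries, ordered by role. Circles are the 2 KO libraries and squares the 2 WT libraries. For 33 of 38 genes both circles lie left of both squares, with Wipf1 farthest left and Coro1b the 1 gene with both circles to the right.

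In 33 of the 38 genes both KO libraries lay below both WT libraries, in 1 (Coro1b) both lay above, and in 4 the groups overlapped. Over all tested genes, both KO libraries lay below both WT libraries in 30% and above in 29.7%. The fold change was negative for 36 of 38 genes and for 50.4% of all tested genes. Summed over the list, the genes took 46263 and 44827 CPM in the KO libraries and 50104 and 50803 CPM in the WT libraries. As a share of raw counts they took 4.77% and 4.61% in the KO libraries and 4.87% and 4.92% in the WT libraries. The groups do not overlap in either sum, but 2 against 2 samples cannot give a 2-sided exact permutation p below 0.333, which is the value both sums reached.

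Summed counts were 25806382 and 26218277 in the KO libraries and 24366540 and 25790107 in the WT libraries, and the lowest count of any of the 38 genes in a library was 352. Smad4, the targeted gene, had 779 and 1088 counts in the KO libraries and 752 and 736 in the WT libraries (log2 fold change 0.19, edgeR adjusted p = 0.397). The gene-level count thus does not bear out the label KO. It also holds exons that Cre leaves in place and Smad4 of any cells without Cre activity, and their part was not tested. KO and WT are used below as the names of the labels. The RNA was not of T cells alone, and summed levels of macrophage and monocyte markers were above those of CD8 T cell markers in every library. Of 9 CD8 T cell markers (Trac was not analysed here), 6 were lower and 0 higher, and Cd8a fell by 0.93 on the log2 scale. Their summed levels were 1798 and 1817 CPM in the KO and 2657 and 2666 CPM in the WT libraries. The list also holds general T cell genes such as Cd3e and Thy1. The tumour line itself derives from a T lymphoma, and the part of tumour cells in these sums and in the actin genes was not tested. Of 13 neutrophil markers 7 were higher, with 1643 and 1644 CPM in the KO and 527 and 535 CPM in the WT libraries. Of 12 macrophage and monocyte markers 1 was higher and 2 lower, and none was at 0. Their sums were 18141 to 18825 CPM in the KO and 18367 to 19071 CPM in the WT libraries, led by Lyz2. Without Lyz2 the sums were 6478 to 6579 CPM in the KO and 6570 to 6714 CPM in the WT libraries. Shares called were 66.7% of CD8 T cell, 53.8% of neutrophil and 25.0% of macrophage and monocyte markers, against 21.2% of all tested genes. The macrophage and monocyte share lies near that of all tested genes, so nothing is read from that count. Of 4 genes listed as natural killer cell markers 1 was higher and 1 lower, and which cells these transcripts came from was not tested. Klre1 fell by 1.87 on the log2 scale, with 14.5 and 16.3 CPM in the KO and 55.3 and 57.5 CPM in the WT libraries. Tyrobp rose by 0.18, with 718 and 713 CPM in the KO and 630 and 634 CPM in the WT libraries. Klrb1c and Ncr1 did not pass, and Ncr1 had counts of 0 and 19 in the KO and 4 and 15 in the WT libraries. Mitochondrial transcripts took 6.57% and 6.99% of counts in the KO libraries and 10.4% and 10.2% in the WT libraries. All these cell types express actin genes, fewer cells of a type and less RNA per cell cannot be told apart in bulk RNA, and the part of cell mixture and mitochondrial share in the falls below was not tested.

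Ranked per kilobase by the deposited FPKM (fragment counts scaled to transcript length and library size), the list spans beta-actin at the top to vinculin at the bottom. Actb stood at 7643 and 7205 FPKM in the KO and 7618 and 7634 FPKM in the WT libraries, and Vcl at 1.57 and 1.63 FPKM in the KO and 2.11 and 1.93 FPKM in the WT libraries. The next in order was Tmsb4x, at 3294 and 3160 FPKM in KO and 4121 and 4349 FPKM in WT libraries. Pfn1, Cfl1 and Tmsb10 followed, all between 726 and 1031 FPKM in every library. Some genes of close rank changed places between the groups. Cfl1 stood above Pfn1, Cdc42 above Capg and Lcp1 above Actr3 in both KO libraries, and each pair had the other order in both WT libraries. Actb alone made up 45.7% and 44.5% of the list's counts in the KO and 42.4% and 41.8% in the WT libraries, more than any other gene of the list. Without Actb, the other genes took 2.59% and 2.56% of all counts in the KO and 2.81% and 2.87% in the WT libraries.

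Serum response factor, known to drive many actin genes, binds a 10-base element called the CArG box. Promoter sequence from RefSeq (GRCm38.p6, 250 bases before each annotated start, both strands read because the element is its own reverse complement in form) was at hand for 34 of the 38 genes, all but Actb, Coro1b, Rac1 and Rac2. A CArG box stood in 4 of the 34 genes, 11.8%, against 1.62% of the 27025 genes of the promoter table. The 4 matches, in capitals within 30 bases printed 5′ to 3′ on the gene's strand, show how the element varies between them:
Actg1: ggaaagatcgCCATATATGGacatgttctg
Myl6: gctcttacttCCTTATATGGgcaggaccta
Arpc4: CCTAATTTGGtgcccaacctgaggtcgggc
Vcl: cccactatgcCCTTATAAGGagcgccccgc
These stretches lie at chr11:120348566-120348595 (minus strand), chr10:128493040-128493069 (minus), chr6:113377863-113377892 (plus) and chr14:20929161-20929190 (plus). The element begins 90 bases before the annotated start of Actg1, 250 before that of Arpc4 and 227 before that of Vcl. For Myl6 it begins 50 bases before an internal RefSeq start, and all 250 bases before that start are exonic in GENCODE M21. The window before the upstream Myl6 start, chr10:128493887-128494136, held 0 matches. Of these genes Actg1, Myl6 and Arpc4 fell and Vcl did not pass, as given with their values below. A match is a description of the letters and not a shown binding site.

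Among the genes of the monomer pool and filament ends, 4 of 7 fell, among them the more abundant thymosin, and beta-actin did not pass. Actb, which encodes beta-actin, had 21124 and 19968 CPM in the KO libraries and 21231 and 21211 CPM in the WT libraries. The KO libraries lay just below the WT libraries, and the 95% interval of the log2 fold change ran from -0.16 to 0.06 (-0.05, edgeR adjusted p = 0.58). Its locus is chr5:142903115-142906754 (mm10, minus strand). Tmsb4x, whose product thymosin beta-4 sequesters actin monomers, had 4660 and 4482 CPM in the KO libraries and 5877 and 6184 CPM in the WT libraries. It fell by 0.40 on the log2 scale (SE 0.052, edgeR adjusted p = 0.000155), with both KO libraries well below both WT libraries, and stayed called under all 12 alternatives. Its locus is chrX:167207093-167209315 (minus strand). Tmsb10, which encodes the related thymosin beta-10, overlapped between the groups, at 1088 and 1056 CPM in KO and 964 and 1097 CPM in WT libraries (log2 fold change 0.06, edgeR adjusted p = 0.581).

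Capg, which encodes a protein that caps filament ends, had 604 and 608 CPM in the KO libraries and 740 and 769 CPM in the WT libraries. It fell by 0.32 on the log2 scale (SE 0.051, edgeR adjusted p = 0.000855) and stayed called under all alternatives. Pfn1, whose product profilin feeds monomers to growing filament ends, had 2226 and 2100 CPM in KO and 2362 and 2570 CPM in WT libraries and fell by 0.19 (edgeR adjusted p = 0.0326). Actg1, which encodes gamma-actin, had 789 and 871 CPM in KO and 1051 and 915 CPM in WT libraries and fell by 0.24 (edgeR adjusted p = 0.0251). Both falls depended on single libraries. Actg1 lost its call without WT replicate 1 (adjusted p = 0.281), with library totals alone (0.121) and without KO replicate 1 (0.0854), over a range of 0.000466 to 0.281 for all alternatives. Pfn1 lost it without WT replicate 2 (adjusted p = 0.331), with library totals alone (0.209) and without KO replicate 2 (0.166), over a range of 0.0106 to 0.331. Cfl1, which encodes the severing protein cofilin, overlapped between the groups at 2758 and 2629 CPM in KO and 2752 and 2882 CPM in WT libraries (log2 fold change -0.06, edgeR adjusted p = 0.432). For Actb and Cfl1 the sign of the fold change turned positive with library totals alone, at 0.04 and 0.02.

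Of the 7 subunits of the Arp2/3 complex, which nucleates branched filaments, 4 fell and 3 did not pass. Actr3, the actin-related subunit ARP3, had 676 and 680 CPM in the KO libraries and 900 and 855 CPM in the WT libraries. It fell by 0.37 on the log2 scale (SE 0.052, edgeR adjusted p = 0.00028), the deepest of the complex. Its partner ARP2 (Actr2) had 262 and 252 CPM in KO and 283 and 288 CPM in WT libraries, lower in both KO libraries but not past the test (log2 fold change -0.15, edgeR adjusted p = 0.0698). Arpc5 and Arpc4, which encode small subunits of the complex, fell by 0.27 and 0.26 (edgeR adjusted p = 0.00273 and 0.00415). Arpc5 had 519 and 499 CPM in KO and 605 and 627 CPM in WT libraries, and Arpc4 had 275 and 283 CPM in KO and 339 and 331 CPM in WT libraries. These 3 falls held under all 12 alternatives.

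Arpc2, a core subunit and the most abundant of the complex per kilobase, had 856 and 807 CPM in KO and 946 and 986 CPM in WT libraries. It fell by 0.22 (edgeR adjusted p = 0.0125), but not without WT replicate 2 (adjusted p = 0.110), without KO replicate 2 (0.0812) or with library totals alone (0.0968), over a range of 0.00174 to 0.110. Arpc1b, the form of the ARPC1 subunit typical of blood cells, had 1269 and 1234 CPM in KO and 1290 and 1418 CPM in WT libraries (log2 fold change -0.11, edgeR adjusted p = 0.187). Arpc3 stood at 129 and 129 CPM in KO and 137 and 128 CPM in WT libraries, with overlapping groups (log2 fold change -0.04, edgeR adjusted p = 0.753). Its sign turned positive with library totals alone (0.05) and without WT replicate 1 (0.0098). Subunits of 1 complex thus ranged from -0.37 to -0.04 on the log2 scale.

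Genes that switch on, steady or otherwise regulate branched filaments held the deepest fall of the list. Wipf1, which encodes the WASP-interacting protein WIP that protects WASP from degradation, had 65.0 and 65.8 CPM in the KO libraries and 113 and 102 CPM in the WT libraries. The 2 KO values are nearly the same and lie far under both WT values. The fall was 1.64-fold, or 0.71 on the log2 scale (SE 0.076, edgeR adjusted p = 2.86e-05), and was called under all 12 alternatives. The gene spans chr2:73429610-73529734 (minus strand). Hcls1, which encodes the cortactin relative of blood cells HS1, had 172 and 184 CPM in KO and 217 and 222 CPM in WT libraries and fell by 0.30 (edgeR adjusted p = 0.00297). Coro1a, the leukocyte coronin, had 1017 and 1114 CPM in KO and 1315 and 1286 CPM in WT libraries and fell by 0.29 (edgeR adjusted p = 0.00301). Both were called under all alternatives. Coro1b, a coronin of wider expression, did not follow, at 335 and 357 CPM in KO and 333 and 325 CPM in WT libraries (log2 fold change 0.07, edgeR adjusted p = 0.404). Wasf2, which encodes the WAVE2 protein that activates Arp2/3 downstream of Rac, had 120 and 125 CPM in KO and 141 and 135 CPM in WT libraries (log2 fold change -0.16, edgeR adjusted p = 0.0896).

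**Figure D2:**
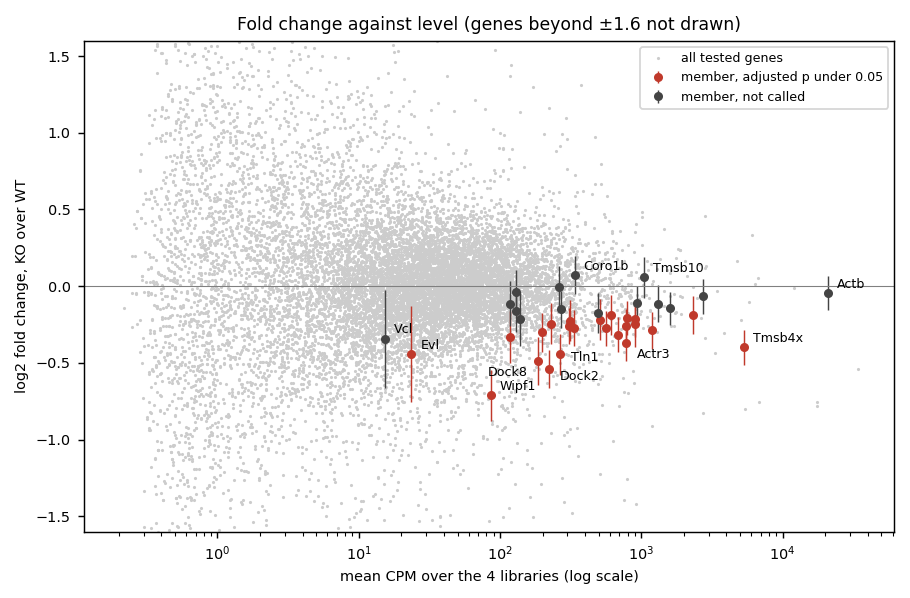
Log2 fold change (KO over WT) against mean CPM on a log axis for all tested genes (grey) and for the 38 actin genes, in red where called and in dark grey where not, with 95% intervals. Wipf1 at -0.71 and Dock2 at -0.54 lie lowest among the 38 genes, Tmsb4x is the most abundant gene called, and Actb, the most abundant of all 38, lies at -0.05.

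Of the 7 small GTPases and DOCK exchange factors, 6 fell and 1 did not pass. Dock2, which encodes the Rac activator of blood cells needed for lymphocyte migration, had 177 and 182 CPM in the KO libraries and 255 and 267 CPM in the WT libraries. It fell 1.45-fold, or by 0.54 on the log2 scale (SE 0.057), with the lowest adjusted p of the list, 2.48e-05 (edgeR). Dock8, an activator of Cdc42 whose loss causes a human immunodeficiency, had 147 and 161 CPM in KO and 230 and 203 CPM in WT libraries. It fell 1.40-fold, or by 0.49 (SE 0.072, edgeR adjusted p = 0.000392), again with no overlap between the groups. Both exchange factors were called under all 12 alternatives. Dock2 spans chr11:34226815-34783892 (minus strand) and Dock8 chr19:24999534-25202432 (plus strand).

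Of the GTPases, 4 of 5 fell, by 0.21 to 0.33 on the log2 scale. Rac2, the Rac of blood cells, had 709 and 711 CPM in KO and 849 and 848 CPM in WT libraries and fell by 0.26 (edgeR adjusted p = 0.0029). Its replicates were close, with an SD of 1.41 CPM in KO and 0.663 CPM in WT libraries. Rac1, the widely expressed Rac, had 441 and 486 CPM in KO and 536 and 510 CPM in WT libraries and did not pass (log2 fold change -0.17, edgeR adjusted p = 0.0566). Rac1 was called lower without KO replicate 2 (adjusted p = 0.0079), with DESeq2 (0.0457) and with limma-voom (0.0477), over a range of 0.0079 to 0.347. Rhoh, a GTPase of blood cells that acts in T cell receptor signalling, had 112 and 96.4 CPM in KO and 127 and 136 CPM in WT libraries and fell by 0.33 (edgeR adjusted p = 0.00963). Without WT replicate 2 its adjusted p was 0.0630, the highest of a range that started at 2.8e-06. Cdc42 (744 and 724 CPM in KO, 833 and 860 CPM in WT libraries) and Rhoa (278 and 299 CPM in KO, 351 and 324 CPM in WT libraries) direct protrusion and contraction. They fell by 0.21 and 0.22 (edgeR adjusted p = 0.0127 and 0.021). Cdc42 lost its call without WT replicate 2 (0.113), with library totals alone (0.109) and without KO replicate 2 (0.0592), over a range of adjusted p from 0.00178 to 0.113. Rhoa lost it without WT replicate 1 (0.205), with library totals alone (0.127) and without KO replicate 1 (0.0873), over a range from 0.00217 to 0.205.

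Myosin genes split evenly, with 2 of 4 called lower. Myo1f, a membrane-tethering myosin of blood cells, had 200 and 220 CPM in KO and 250 and 247 CPM in WT libraries and fell by 0.24 (edgeR adjusted p = 0.0124). Its relative Myo1g, the class I myosin known from lymphocyte surfaces, overlapped between groups at 248 and 273 CPM in KO and 255 and 267 CPM in WT libraries (log2 fold change -0.0037, edgeR adjusted p = 0.977). Myl6, a light chain of non-muscle myosin, had 595 and 544 CPM in KO and 626 and 670 CPM in WT libraries and fell by 0.19 (edgeR adjusted p = 0.0425). Myh9, the heavy chain that myosin light chains of this kind serve, had 120 and 137 CPM in KO and 158 and 140 CPM in WT libraries and did not pass (log2 fold change -0.21, edgeR adjusted p = 0.0801). The calls in this group were not stable. Myo1f lost its call without WT replicate 1 (0.0669), with library totals alone (0.0767) and without KO replicate 1 (0.0718), over a range of adjusted p from 0.000388 to 0.0767. Myl6 lost it without WT replicate 2 (0.297), with library totals alone (0.247) and without KO replicate 2 (0.241), over a range from 0.0071 to 0.297. Myh9 was called lower without WT replicate 2 (0.0301) and without KO replicate 2 (0.000988), over a range from 0.000988 to 0.511. Myo1g turned positive with library totals alone (0.08), upper quartile scaling (0.0043), without WT replicate 2 (0.03) and without KO replicate 1 (0.06).

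Genes that bundle filaments or tie them to the membrane and to integrins fell in 3 of 6 cases. Tln1, which encodes talin, the protein that activates integrins and links them to actin, had 213 and 236 CPM in the KO libraries and 313 and 298 CPM in the WT libraries. It fell by 0.44 on the log2 scale, or 1.36-fold (SE 0.062, edgeR adjusted p = 0.000291), and was called under all 12 alternatives. It spans chr4:43531519-43562691 (minus strand). Vcl, which encodes the talin partner vinculin, was the scarcest gene of the list, at 13.2 and 13.8 CPM in KO and 17.9 and 16.4 CPM in WT libraries. Its interval ran from -0.66 to -0.02 around -0.34, and it did not pass after adjustment (edgeR adjusted p = 0.127).

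Ezr, which encodes the membrane linker ezrin, had 301 and 304 CPM in KO and 376 and 356 CPM in WT libraries and fell by 0.27 (edgeR adjusted p = 0.00358, called under all alternatives). Msn, for the related moesin that dominates in lymphocytes, had 905 and 879 CPM in KO and 951 and 973 CPM in WT libraries and did not pass (log2 fold change -0.11, edgeR adjusted p = 0.156). Of the 2 crosslinker genes, Flna (filamin A) had 454 and 488 CPM in KO and 575 and 522 CPM in WT libraries and fell by 0.22 (edgeR adjusted p = 0.0235). Lcp1, for the leukocyte bundling protein L-plastin, had 1527 and 1494 CPM in KO and 1652 and 1690 CPM in WT libraries (log2 fold change -0.15, edgeR adjusted p = 0.0561). Flna lost its call without WT replicate 1 (0.244), with library totals alone (0.139) and without KO replicate 1 (0.0962), over a range of adjusted p from 0.00303 to 0.244. Lcp1 was called lower with DESeq2 (0.0259) and limma-voom (0.0253), over a range from 0.0253 to 0.426. Of the 2 Ena/VASP genes, whose products keep filament ends growing, Evl had 22.7 and 17.2 CPM in KO and 26.0 and 28.3 CPM in WT libraries and fell by 0.44 (SE 0.144, edgeR adjusted p = 0.0453). Evl lost its call without WT replicate 1 (0.0961), WT replicate 2 (0.230) or KO replicate 2 (0.186), with library totals alone (0.0938) and with DESeq2 (0.0682), over a range from 0.000185 to 0.230. Vasp had 111 and 115 CPM in KO and 127 and 117 CPM in WT libraries (log2 fold change -0.11, edgeR adjusted p = 0.268).

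A ratio of 2 genes taken within a library needs no scaling between libraries, and 8 pairs of related genes were compared. In 5 the KO and WT libraries did not overlap, but levels of single genes also did not overlap in 30% (KO below) and 29.7% (KO above) of all tested genes, so nothing is read from that count. Tmsb4x stood at 3.99 and 3.95 times the FPKM of Tmsb10 in the KO libraries and at 5.67 and 5.25 times in the WT libraries. Coro1a stood at 3.49 and 3.60 times Coro1b in the KO and at 4.55 and 4.55 times in the WT libraries. Both ratios were lower in both KO libraries, with a gap between groups wider than that between replicates. Actr3 over Actr2 was 2.90 and 3.03 in the KO and 3.58 and 3.34 in the WT libraries, and Myo1f over Myo1g was 1.13 and 1.13 in the KO and 1.37 and 1.30 in the WT libraries. The ratio of moesin to ezrin ran the other way, at 1.56 and 1.5 in the KO and 1.31 and 1.42 in the WT libraries. Actb over Actg1 (26.6 and 22.8 in KO, 20.0 and 23.0 in WT), Rac2 over Rac1 (2.33 and 2.12 in KO, 2.29 and 2.41 in WT) and Vasp over Evl (5.47 and 7.5 in KO, 5.49 and 4.66 in WT libraries) overlapped. With 2 libraries a group, the smallest 2-sided exact permutation p for such a ratio is 0.333.

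**Figure D3:**
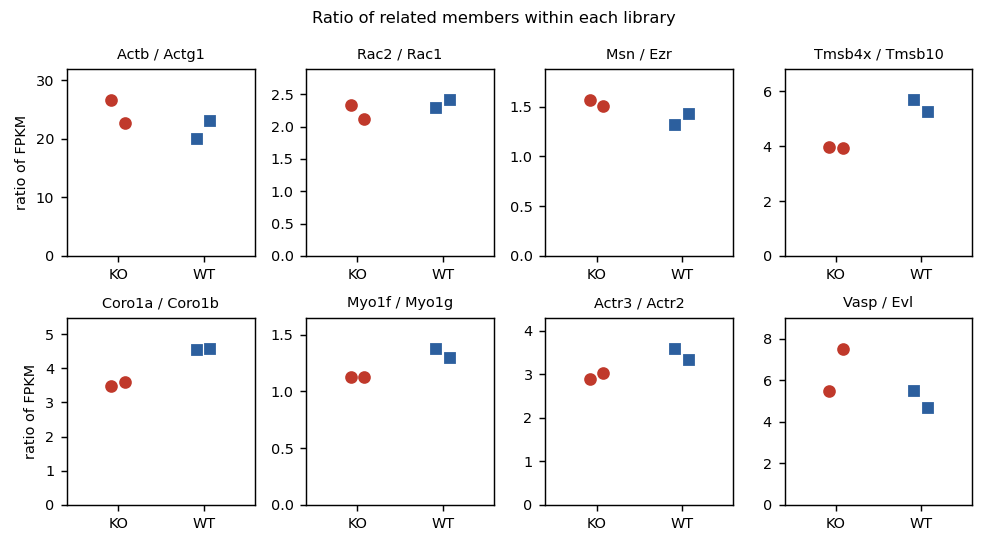
Ratio of deposited FPKM of 8 pairs of related actin genes within each library, with KO libraries (circles) left of WT libraries (squares) and each axis starting at 0. The ratio of Tmsb4x to Tmsb10 is 3.99 and 3.95 in KO and 5.67 and 5.25 in WT libraries, and Actb over Actg1, Rac2 over Rac1 and Vasp over Evl overlap.

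Counts of some of these genes may hold reads of another gene. Of the 38 genes, 10 share over 10% of their 50-base words with transcripts of another gene, or at least 5% of their exons with another tested gene, in GENCODE M21. They are Actg1, Actr3, Arpc1b, Arpc4, Cfl1, Coro1b, Evl, Rac1, Tmsb10 and Vcl, and their values are uncertain. Rac1 shares 50.3% of its words, with the opposite-strand gene Daglb, and Actg1 37.4%, mostly with Gm12715. Of these 10, 4 were called lower, and of the other 28 genes 19 were.

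In the wider actin machinery, lower calls outnumbered higher ones. These further lists were chosen with earlier results of these data known, so they are a description and no independent support. A further 116 genes, listed by 6 roles, were all tested, and 38 were lower, 4 higher and 74 did not pass, with a median log2 fold change of -0.10, against 11.0% lower, 10.1% higher and a median of -0.0037 over all tested genes. Of the 72 of them with a mean of at least 50 CPM, 31 were lower and 4 higher, against 18.5% and 16.3% of all tested genes at that level. Library totals alone gave 28 lower and 8 higher, against 1013 lower and 2105 higher of all 13358 tested genes. With a library left out, the median log2 fold change of the 116 genes ran from -0.12 to -0.09. Sharing of sequence with other genes was not examined for these.

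Crosslinkers and adhesion linkers had 9 of 22 genes lower and 0 higher. Tes, a focal adhesion protein gene, fell by 0.79 (81.7 CPM in KO and 142 CPM in WT libraries on average) and Pstpip1, whose product binds WASP and the CD2 tail, by 0.73 (96.2 CPM in KO and 159 CPM in WT). Among regulators and effectors of small GTPases 11 of 32 were lower and 1 higher. Dock10, a relative of Dock8, fell by 0.72 (80.6 CPM in KO and 133 CPM in WT), Rhof, a GTPase of filopodia, by 0.54 (78.4 CPM in KO and 114 CPM in WT) and Def6, a Rac exchange factor of T cells, by 0.52 (54.8 CPM in KO and 78.7 CPM in WT), whereas Rhob rose by 0.44 (91.2 CPM in KO and 67.4 CPM in WT). Turnover and capping genes were lower in 9 of 22 cases and higher in 2. Capzb, the beta chain of capping protein, fell by 0.44 (502 CPM in KO and 681 CPM in WT), Gmfg, a factor that trims branches, by 0.58 (91.3 CPM in KO and 137 CPM in WT) and the coronin gene Coro2a by 0.58 (36.4 CPM in KO and 54.5 CPM in WT). The slingshot phosphatase gene Ssh2 rose by 0.43 (60.9 CPM in KO and 45.3 CPM in WT) and Gmfb by 0.21 (116 CPM in KO and 101 CPM in WT).

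The shares called in the remaining lists, 22.2% of formins, 27.8% of WASP and WAVE genes and 23.1% of myosins and tropomyosins, were near the 21.2% of all tested genes, so their counts are given as a description. Of 9 formins, which nucleate straight filaments, 2 fell, Fmnl1 by 0.56 (108 CPM in KO and 159 CPM in WT) and Diaph1 by 0.41 (54.8 CPM in KO and 72.9 CPM in WT). Of 18 genes of the WASP and WAVE complexes, 4 fell and 1 rose. Nckap1l, the WAVE complex scaffold of blood cells, fell by 0.28 (230 CPM in KO and 278 CPM in WT), Abi1 by 0.20 (139 CPM in KO and 160 CPM in WT) and Wipf2, a relative of Wipf1, by 0.60 (7.92 CPM in KO and 12.0 CPM in WT), while Arpc5l, an alternative to Arpc5, rose by 0.24 (134 CPM in KO and 113 CPM in WT). Of 13 myosin and tropomyosin genes, 3 fell, with Tpm3 down by 0.50 (489 CPM in KO and 691 CPM in WT), Tpm4 by 0.25 (353 CPM in KO and 420 CPM in WT) and the myosin light chain gene Myl12a by 0.28 (217 CPM in KO and 263 CPM in WT). Adjusted p-values of these named genes lay under the 0.05 threshold (edgeR quasi-likelihood, Benjamini-Hochberg).

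**Figure D4:**
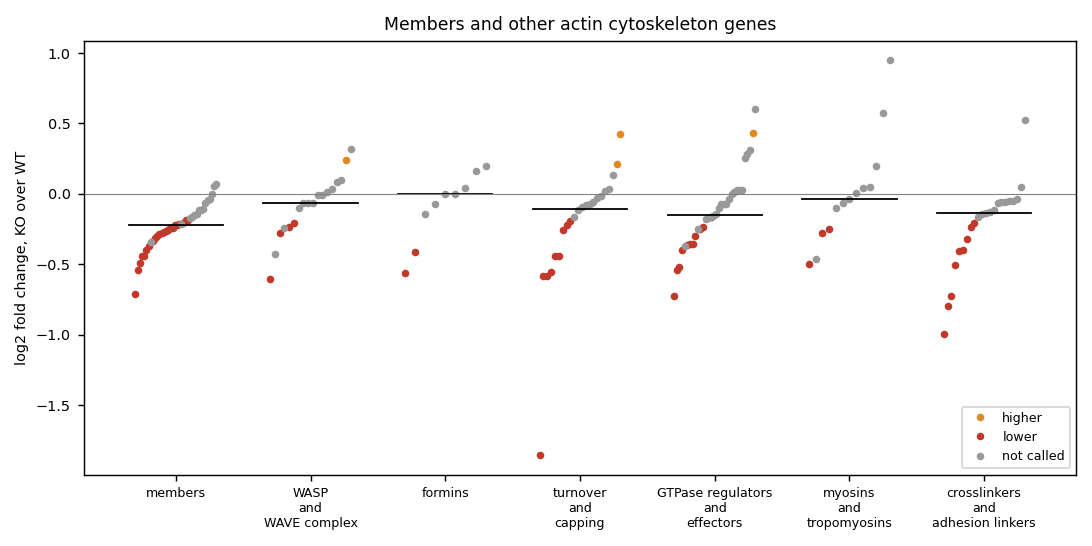
Log2 fold changes (KO over WT) of the 38 actin genes and of 116 further actin cytoskeleton genes in 6 lists, 1 point a gene, coloured by call, with a bar at each list's median. The bar of the 38 genes lies at -0.22, and those of the 6 lists lie between -0.15 and -0.0030.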

How the data were processed

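Bulk RNA-seq counts of 2 libraries labelled KO and 2 labelled WT were analysed. The deposited counts are whole reads per gene, per the file headers, 1 table per library. The deposited FPKM, per the file headers, served only to rank genes per length and to form ratios within a library. Per the submitters' processing notes, the build was mm10 and the tools included featureCounts, Bowtie2 and Trim Galore 0.4.4, with no roles stated. For strandedness and counting settings, nothing is given in the sources used here.

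The test was edgeR 4.0.16's robust quasi-likelihood fit (glmQLFit, glmQLFTest, R 4.3.3) after TMM scaling and filterByExpr (minimum count 10, minimum total 15), Benjamini-Hochberg adjusted over 13358 genes. Of the 14082 listed genes 724 were filtered out. A log2 fold change is KO over WT, and its SE comes from the F statistic. Alternatives were RLE, library totals, upper quartile, TMM without mitochondrial genes, no filter, the replicate number as a block, each library left out, DESeq2 1.42.0, limma-voom (limma 3.58.1) and a threshold of 0.1. The fit was tested on simulated counts. Positions are from GENCODE M21 (GRCm38, called mm10). The 38 genes and all lists were chosen with earlier results of these data known. Values per library are given for all 38 genes, and of the other lists up to 3 called genes per direction, by p. Some items are not reported here. The level of 50 CPM, the 50-base word and the crossed pairing were chosen after the data were seen. Libraries within a group were further apart than counting noise (chi-square per degree of freedom 9.95 in KO and 7.63 in WT over all tested genes), so none was merged. Over the 38 genes, which are abundant, that value was higher, at 50.4 in KO and 37.2 in WT. The median chi-square per gene of the 38 was 14.9 in KO and 10.1 in WT. Only counting error and the spread between these samples are covered.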

Additional observations from a re-analysis of the deposited data

How the results depend on the processing

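None of the 38 genes was called higher under any of the 12 alternatives with a threshold of 0.05, nor at 0.1, and 13 were called lower with all libraries and under all 12. The other 10 called genes lost their call in at least 1. The count of lower genes was 14 with library totals alone. It was 18 to 20 with a library left out, 24 with DESeq2, 25 with limma-voom and 28 at an adjusted p of 0.1. Shares of all tested genes called lower with DESeq2, with limma-voom and at 0.1 are not given here, so nothing is read from the larger counts there. The list's median was -0.14 with library totals alone and -0.25 to -0.22 with a library left out. With library totals alone the signs of Actb (0.0386), Cfl1 (0.0205), Arpc3 (0.0493) and Myo1g (0.0815) turned positive. Myo1g also did so with upper quartile scaling (0.0043). With a library left out, Myo1g ran from -0.0758 to 0.0636 (positive without WT replicate 2 or KO replicate 1), Arpc3 from -0.0802 to 0.0098 (positive without WT replicate 1) and Tmsb10 from -0.0358 to 0.156 (negative without WT replicate 1). None of these genes was called in any setting. The causes were not tested.

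Over all tested genes, library totals alone gave 2105 higher, and leaving out a library gave 714 to 1605 higher and 831 to 1787 lower. Of the further 116 genes, 8 were higher with library totals alone and 7 at an adjusted p of 0.1, and with a library left out 2 to 8 were higher and 21 to 37 lower.

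The replicate numbers share no stated origin, and deviations of same-numbered libraries correlated at -0.015 over all tested genes. With the replicate number as a block 20 of the 38 genes were lower and 0 higher, and Pfn1 (adjusted p = 0.0841), Cdc42 (0.0559) and Myl6 (0.0886) were not called. With crossed numbers as pairs, added after the data were seen, 30 of 38 and 42 of 116 genes were lower and 0 and 7 higher, against 1770 lower and 1673 higher of all 13358 tested. That pairing followed the replicate pattern seen in these genes, so nothing is read from its counts. Intervals were widest for Vcl and Evl, the scarcest of the 38 genes by CPM, and the part of depth in this was not tested.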

Other observations

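Replicates of a group differed over the actin genes in a patterned way, noticed after the values were seen. In 33 of 38 genes the sign of KO replicate 2 over KO replicate 1 was that of WT replicate 1 over WT replicate 2, against 61.5% of the 3965 tested genes with a mean of at least 50 CPM. Coro1a, Flna, Myh9, Rhoa and Dock8 were higher in KO replicate 2 and WT replicate 1, whereas Tmsb4x, Pfn1, Arpc2, Arpc5 and Myl6 were higher in KO replicate 1 and WT replicate 2. Across the 38 genes the log2 ratio of replicate 1 to replicate 2 in KO correlated with that in WT at r = -0.66, and across the 3965 genes at r = -0.23. These points share the 4 libraries and are not independent. The same ratio correlated with log2 gene length at -0.31 in KO and 0.39 in WT across the 38 genes, and at -0.026 in KO and 0.12 in WT across the 3965 genes. Its origin was not tested.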
